A study of Mus musculus with 68 samples.

Results

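The E3.5 mouse blastocyst and the epiblast of the E6.5 embryo were compared through 12 of the 68 RNA libraries of the series, taken by stage and table from the labels. The earlier stage had 6 libraries of whole pre-implantation embryos from the first of the E3.5 tables, and the later stage had 6 libraries of epiblast from post-implantation embryos. Each stage held 2 wild type (WT) libraries, 2 labelled Ezhip mHet and 2 labelled Ezhip mKO, and the genotypes were pooled unless stated. The protein of Ezhip, a gene on the X chromosome, restrains PRC2, which places methyl groups on lysine 27 of histone H3, and the series deleted it to study how the mark on that residue is carried from oocyte to embryo. Libraries were made from polyadenylated RNA with the Smart-seq2 protocol, made for very small inputs. Strain, sex, embryos pooled per library and whether replicates came from separate litters are not stated here.

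The blastocyst holds an outer trophectoderm, which builds the placenta, and an inner cell mass that sorts into epiblast and primitive endoderm. Its pluripotent cells are in a naive state kept by factors such as Klf, Tfcp2l1 and Esrrb. After implantation the epiblast becomes an epithelium, loses the naive factors, keeps Pou5f1, and takes on a formative programme with Otx2, Fgf5 and the de novo DNA methyltransferases before gastrulation begins at the primitive streak. A whole blastocyst against an isolated epiblast therefore differs in cell makeup as well as in age, and in these bulk libraries fewer cells of a type and less RNA per cell cannot be told apart.

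Values are FPKM, reads per gene length and library total, rescaled to equal totals in every library after the ribosomal RNA precursor Rn45s was removed. A difference is the epiblast mean of log2(FPKM + 1) minus the E3.5 mean. The tables had been normalized separately, so a difference between stages has no p-value here, and stage, tissue and table cannot be told apart. A gene was called higher or lower when its difference was at least 2 on the log2 scale, 4-fold, and the 6 libraries of 1 stage lay wholly above those of the other. FPKM keep no read totals, so depth is unknown. Between 8783 and 9260 genes reached 1 FPKM in the E3.5 libraries and between 9323 and 9768 in the epiblast libraries. Rn45s took 2.13 to 21.0% of summed FPKM at E3.5 and 0.342 to 3.21% in epiblast. E3.5 WT replicate 1 stood apart, with the 21.0% share and a median correlation of 0.909 to the other E3.5 libraries, which had 0.952 to 0.974. Correlations across genes were 0.888 to 0.979 between E3.5 libraries, 0.959 to 0.982 between epiblast libraries and 0.669 to 0.798 between the stages. Ezhip (AU022751 in the tables) was at most 1.27 at E3.5 and at most 0.711 in epiblast, WT included, so it cannot check the genotype labels. Summed Y-linked transcripts were 41.8 to 106 in the WT and mHet E3.5 libraries and at most 0.197 in the mKO ones, while in epiblast WT column 3 and mKO column 4 alone held them, at 78.6 and 78.5. X and Y genes were left out of all that follows, but the stages still differed in how many libraries held Y-linked transcripts.

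Of 11172 genes kept, 511 (4.57%) were called higher in epiblast and 698 (6.25%) lower, 1209 (10.8%) in all. The median difference over all genes kept was 0.03. These shares and this median are the background for the counts and medians of every gene list below. A log2 difference of 4 was passed by 45 of the higher genes and 151 of the lower ones. With FPKM as deposited the median gene moved to 0.34 and the split turned to 695 higher and 554 lower, 55.6% higher in place of 42.3%. With the second E3.5 table in place of the first, 774 were higher and 446 lower, of which 390 and 385 were also called against the first. The second table held 15 libraries, more for the rule of no overlap to clear. Its Rn45s share was 9.19 to 69.5% (median 31.5%), mostly above that of the first. At the edge of the rule, Mcm2 was just inside at 2.001 and Gdap1l1 just outside at 1.997, and Plekhh1 was just inside at -2.0001 and Aqp8 just outside at -1.9997. The plot of mean levels shows how far the called genes stand from the rest.

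**Figure D1:**
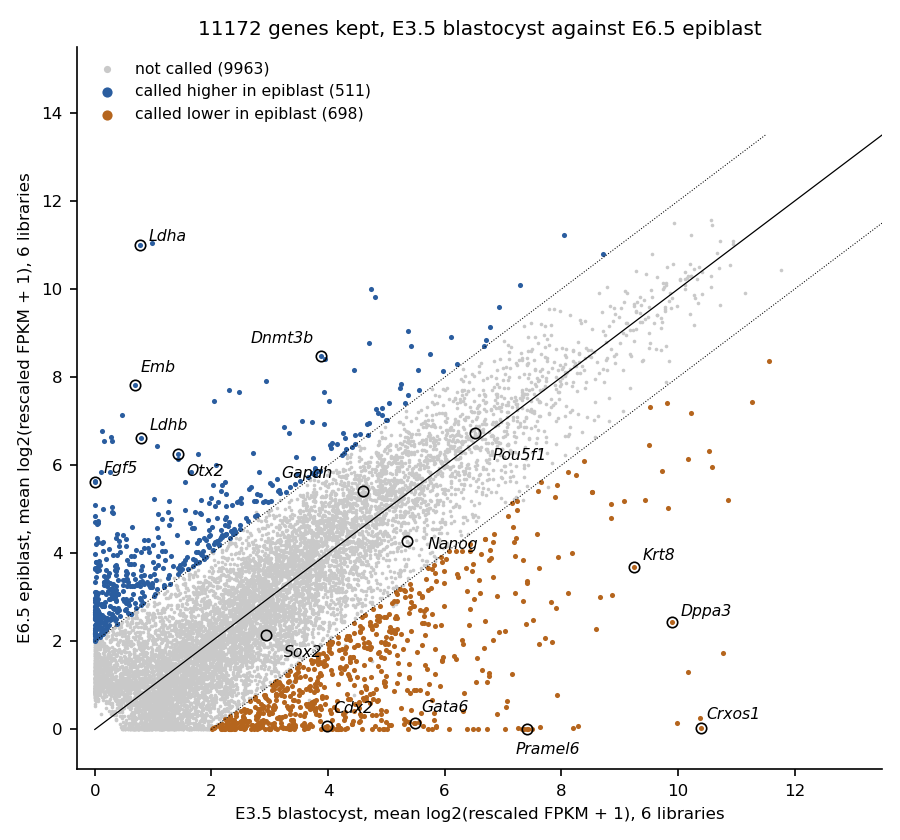
Mean log2(rescaled FPKM + 1) of 11172 genes over the 6 E3.5 libraries (horizontal axis) and the 6 epiblast libraries (vertical axis), with dotted lines at a log2 difference of 2. Blue points are the 511 genes called higher in epiblast and brown points the 698 called lower; Ldha lies at the upper left and Crxos1 at the lower right, while Pou5f1 lies near the diagonal.

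Naive pluripotency genes were lower in epiblast as a group. Of 23 kept of 25 listed, 14 were called lower and 0 higher, with a median difference of -3.27. Dppa3, a maternal and germ cell protein that shields DNA from demethylation, ran from 439 to 1355 at E3.5 (median 1065) and from 2.65 to 8.43 in epiblast (median 3.79), a difference of -7.47. Klf5, a Krüppel-like factor of the inner cell mass and trophectoderm, went from 119 to 174 (median 140) down to 0.307 to 6.86 (median 0.979), a difference of -5.90. Tfcp2l1, a naive factor downstream of LIF, was 34.5 to 59.2 (median 37.0) against 0.0574 to 0.220 (median 0.145). The stages did not overlap for any of these. Zfp42, the marker also known as Rex1, was 91.9 to 178 (median 110) against 0.953 to 11.7 (median 2.84). Fbxo15, an F-box gene expressed in embryonic stem cells, was 150 to 313 (median 264) against 0.159 to 1.90 (median 0.524). Spic, a gene of the ETS family, was 24.7 to 76.1 at E3.5 and listed at 0 in every epiblast library. Klf2, Klf4 and Tbx3, chosen after their values were seen, differed by -3.28, -2.55 and -3.90. Not every naive gene was lower: Tdh, a threonine dehydrogenase of mouse pluripotent cells, had a difference of -0.18, with 4.61 to 9.05 at E3.5 (median 7.55) and 4.67 to 11.6 in epiblast (median 5.75).

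Nanog and Sox2 did not pass the rule, and neither did Pou5f1. Pou5f1, the octamer factor at the head of the pluripotency network, was 60.6 to 127 at E3.5 (median 93.8) and 82.2 to 138 in epiblast (median 102), a difference of 0.20. Nanog was 2.43 to 97.3 (median 76.1) against 11.6 to 35.9 (median 17.5), a difference of -1.07. Its ranges overlapped, with 2.43 in E3.5 WT replicate 1 and 25.8 in E3.5 mKO replicate 1. Without E3.5 WT replicate 1 the difference of Nanog was -1.79, and in the WT libraries alone it was 0.35. Sox2, the partner of Pou5f1, was low at both stages, 2.74 to 22.9 (median 4.31) and 1.47 to 6.502 (median 3.52). Of 14 core pluripotency genes kept, 5 were called higher, 0 lower, with a median of 0.84. Zscan10, a zinc finger factor of embryonic stem cells, was 0.368 to 3.73 (median 0.844) against 15.6 to 40.8 (median 30.5). Utf1, a chromatin-bound protein of pluripotent cells, was 23.5 to 50.5 (median 32.1) against 73.0 to 316 (median 182). Lin28a and Lin28b, RNA-binding inhibitors of let-7 maturation, differed by 2.75 and 2.99. In the WT libraries alone 3 of the 14 were called higher.

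Formative and post-implantation genes were higher. Of 25 kept of 30 listed, 15 were called higher and 1, Tcf15, lower, with a median of 2.50. Fgf5, the growth factor that marks the post-implantation epiblast, was listed at 0 in all 6 E3.5 libraries and was 24.0 to 67.5 in epiblast (median 51.2). Otx2, a homeobox factor that opens the formative programme, was 0.404 to 5.38 (median 1.62) against 50.1 to 107 (median 78.6), a difference of 4.84. Sox11 was at most 0.0415 at E3.5 and 10.8 to 24.6 in epiblast (median 18.6). Each of these genes was therefore off or low in whole blastocysts and clearly measured in every epiblast library. Sall2, a zinc finger factor, was at most 0.0497 against 10.2 to 18.8 (median 14.9). Pou3f1, the POU factor also called Oct6 and chosen after its values were seen, was at most 0.217 against 2.68 to 9.91 (median 5.67).

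**Figure D2:**
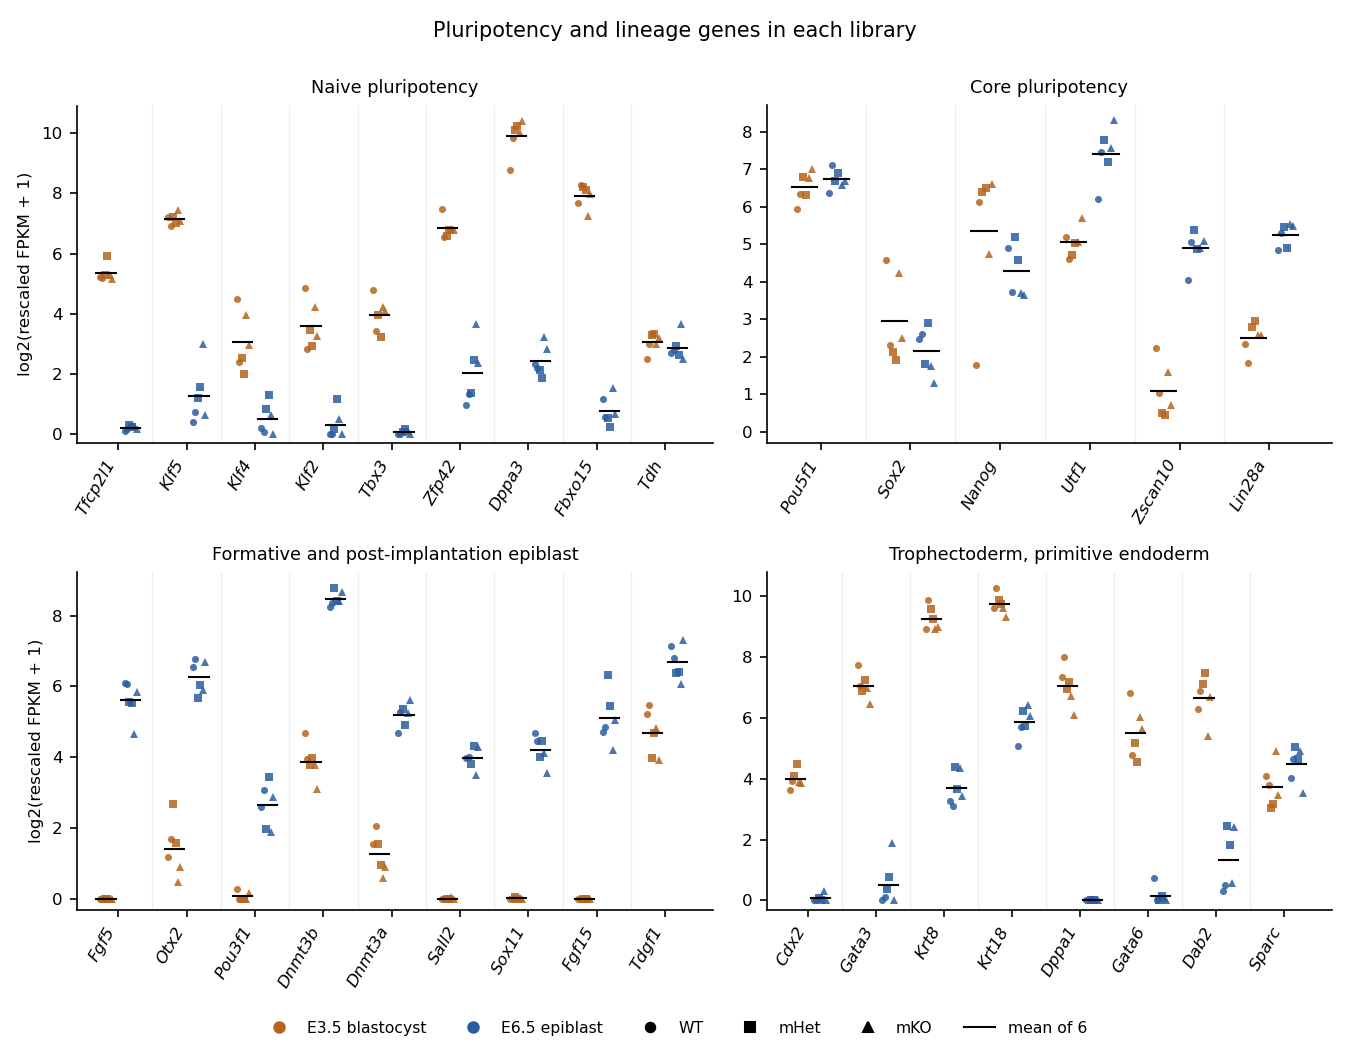
log2(rescaled FPKM + 1) of naive, core, formative and lineage genes in each library, E3.5 in brown and epiblast in blue, with a symbol per genotype and a bar at the mean of 6 libraries. Klf5, Dppa3 and Dppa1 are high only on the E3.5 side and Fgf5, Sall2 and Sox11 only on the epiblast side, while the values of Pou5f1, Sox2, Nanog, Tdh and Sparc overlap.

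Of 35 trophectoderm genes kept, 25 were called lower and 0 higher, with a median of -3.84. Cdx2, the homeobox factor that specifies trophectoderm, was 11.4 to 21.2 at E3.5 (median 14.1) and at most 0.246 in epiblast, a difference of -3.92. Gata3, a zinc finger factor of the same lineage, was 85.8 to 211 (median 128) against at most 2.67 (median 0.190). Krt8, a keratin of simple epithelia, was 482 to 928 (median 555) against 7.53 to 19.7 (median 10.8). Its partner Krt18 was 630 to 1235 (median 816) against 32.9 to 84.5 (median 58.7), so keratin RNA was lower but still present in epiblast. Dppa1 was 66.6 to 253 at E3.5 and listed at 0 in all epiblast libraries. Fabp3, a fatty acid binding protein, was 1229 to 3212 (median 1738) against 14.1 to 113 (median 31.9). Cldn4, a tight junction claudin, was 177 to 275 (median 237) against 2.24 to 14.2 (median 7.18).

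Of 20 primitive endoderm genes kept of 28 listed, 3 were called lower and 0 higher, with a median of -0.96. Gata6, the factor that drives primitive endoderm, was 22.2 to 111 at E3.5 (median 42.2) and at most 0.664 in epiblast, a difference of -5.34. The endocytic adaptor Dab2 and its receptor Lrp2, on the trophectoderm list too, were the other two. Sparc, a matrix protein, was 7.14 to 29.0 (median 11.4) against 10.7 to 32.3 (median 24.2), with overlapping ranges. Visceral endoderm genes had 3 lower and 1 higher of 13 kept. Apoa1, an apolipoprotein, was 10.6 to 48.8 (median 22.3) against 0.174 to 1.22 (median 0.512). The gene called higher was Car2, a carbonic anhydrase.

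Summed markers of each cell type checked the tissue labels. Post-implantation epiblast markers summed to 154 to 205 at E3.5 (median 177) and to 762 to 1146 in epiblast (median 876). In E6.5 extraembryonic ectoderm they summed to 248 to 328, also above every E3.5 library. Dnmt3b (median 339) and Utf1 (median 182) gave much of the epiblast sum. Pou5f1 and Sox2, also among these markers, were not called. Trophectoderm markers summed to 1282 to 2376 (median 1624) against 67.4 to 139 (median 84.5), and primitive endoderm markers to 127 to 210 (median 168) against 1.42 to 6.08 (median 3.78). Most of the primitive endoderm sum at E3.5 was Dab2 (median 109), also a trophectoderm list gene, and Gata6 (median 42.2). Gata4, Sox17 and Sox7 had E3.5 medians of 0.28, 0.32 and 0.06. Markers of maternal decidua and blood were at most 2.36 at E3.5 and at most 3.03 in epiblast, with Prl8a2 and Hbb-b1 listed at 0 in all 12 libraries. Extraembryonic ectoderm markers, of the tissue next to the epiblast, summed to 196 to 274 in that tissue and to 1.31 to 2.76 in 4 epiblast libraries. They were 13.4 in epiblast mHet column 4 and 39.1 in mKO column 3. Elf5, a defining factor of that tissue, was 4.39 and 16.7 in those libraries and at most 0.105 in the other four. Leaving both libraries out moved the count of calls of each of the 27 lists by at most 1 gene in either direction.

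**Figure D3:**
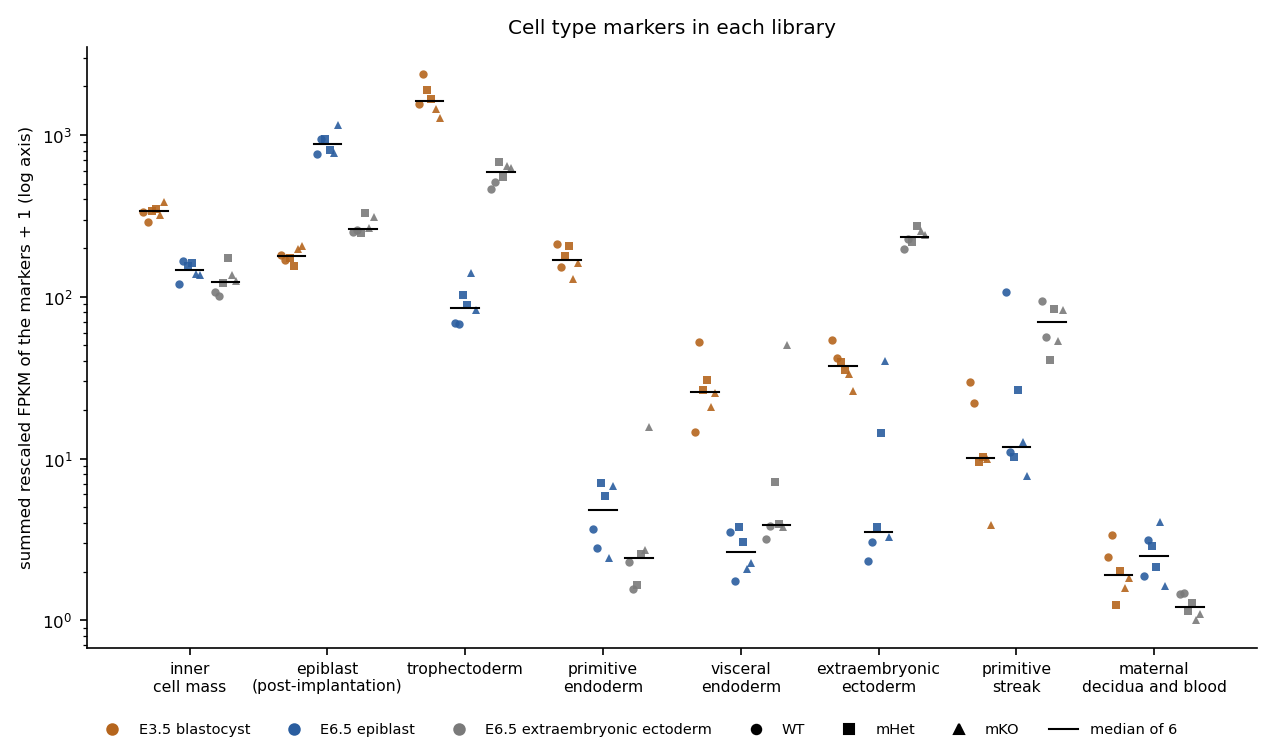
Summed rescaled FPKM, plus 1, of the markers of 8 cell types on a log axis, in each E3.5 (brown), epiblast (blue) and extraembryonic ectoderm (grey) library, with a bar at the median of 6. Trophectoderm and primitive endoderm sums are lower in every epiblast library than in any E3.5 library, and 1 epiblast library each stands out for primitive streak (106) and extraembryonic ectoderm (39.1) markers.

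The epiblast libraries differed among themselves in primitive streak genes. Of 13 such genes kept of 24, 2 were called higher and 1 lower, with a median of 0.56 that was -0.03 without epiblast mKO column 3 and mHet column 4. Mixl1, a homeobox gene of the streak, was 69.8 in epiblast WT column 3 and 0.541 to 5.03 in the other five. T (brachyury), chosen after its values were seen, was 5.39 in that library and at most 1.31 in the others, and was listed at 0 in all E3.5 libraries. The summed streak markers were 106 there and 6.77 to 25.4 in the other epiblast libraries. Fgf8, which is made in the streak, was listed at 0 at E3.5 and was 0.583 to 15.3 in epiblast (median 5.59). Fst, the activin-binding protein follistatin, was also listed at 0 at E3.5 and was 1.20 to 20.6 (median 3.32).

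Nodal pathway genes were higher at several steps. Of 26 Nodal and BMP genes kept, 8 were called higher and 3 lower, with a median of 0.65. The ligand Nodal was at most 0.172 at E3.5 and 10.7 to 45.8 in epiblast (median 14.9). Its co-receptor Tdgf1 was 14.2 to 43.1 (median 25.8) against 66.6 to 158 (median 97.8). Foxh1, the factor that takes Smad proteins to Nodal targets, was 1.35 to 5.81 (median 3.62) against 30.6 to 59.4 (median 52.2). Ligand, co-receptor and nuclear partner were thus all above their E3.5 range in every epiblast library. The feedback inhibitor Lefty1 was at most 0.106 at E3.5 and 0.512 to 30.7 in epiblast (median 3.17), a spread of its own. Id2, an inhibitor of helix-loop-helix factors that also marks trophectoderm, was 173 to 957 (median 460) against 4.68 to 122 (median 43.6). Bmp4 was not called, with 0.225 to 14.0 (median 0.545) and 0.718 to 17.2 (median 0.977). In the WT libraries alone the list had 4 higher and 4 lower.

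Of 22 FGF genes kept, 5 were called higher and 1 lower, with a median of 1.16, and in WT alone 4 and 3, with a median of 0.64. Fgf15 was listed at 0 in all E3.5 libraries and was 17.4 to 78.8 in epiblast (median 30.2). Fgf4, the ligand made by the inner cell mass, was not called, with 0.695 to 2.56 (median 2.06) against 2.39 to 16.4 (median 9.68). Fgfr2, the receptor of trophectoderm and primitive endoderm, was 6.95 to 23.1 (median 10.6) against 0.109 to 3.24 (median 0.747). Etv5, an ETS factor downstream of FGF signalling, was 3.33 to 10.5 (median 6.92) against 27.1 to 46.4 (median 34.6). Spry2, a feedback inhibitor, was not called, with 40.0 to 178 (median 72.0) against 30.2 to 63.9 (median 47.6). Of 21 Wnt genes kept, 6 were higher and 2 lower, with a median of 0.56. Tcf7, a nuclear partner of beta-catenin, was at most 1.33 at E3.5 and 7.79 to 13.9 in epiblast (median 11.0). The ligand Wnt7b was 6.42 to 15.1 (median 10.9) against at most 2.74 (median 0.119).

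Of 19 DNA methylation genes kept, 4 were called higher and 4 lower, with a median of 0.68. Dnmt3b, a de novo methyltransferase, was 7.53 to 24.6 at E3.5 (median 13.6) and 299 to 440 in epiblast (median 339), a difference of 4.601. Its relative Dnmt3a was 0.519 to 3.21 (median 1.43) against 24.6 to 47.6 (median 37.5), a difference of 3.91. Dnmt3l, their cofactor without catalytic activity, was 24.0 to 48.1 (median 34.4) against 2.94 to 11.2 (median 4.75). The catalytic enzymes and their cofactor were thus called in opposite directions. Tet2, an enzyme that oxidises methylcytosine, was 20.7 to 69.0 (median 24.6) against 0.0150 to 0.390 (median 0.0835). Zfp57, which guards imprints, was 7.48 to 96.9 (median 16.8) against 0.963 to 3.54 (median 2.25). The maintenance pair Dnmt1 and Uhrf1 had differences of 1.31 and 1.28, and Tet1 of -0.06, none of them called. Dnmt1 and Tet1 were chosen after their values were seen.

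Most Polycomb genes were not called, as held for genes in general. Of 31 Polycomb genes kept, 2 were higher and 4 lower, against 4.57% and 6.25% of all genes kept. Their median was -0.36 and turned to 0.07 with FPKM as deposited. The PRC2 catalytic subunit Ezh2, chosen after its values were seen, was 24.0 to 43.6 (median 30.1) against 30.7 to 41.3 (median 37.5). The subunit Eed was 32.0 to 63.4 (median 46.9) against 33.6 to 56.2 (median 49.4), a difference of 0.03. Suz12, the third core subunit, was 32.1 to 84.8 (median 51.9) against 7.34 to 15.0 (median 11.7), a difference of -2.05. Its accessory partners Jarid2 and Aebp2 had -2.09 and -2.34, and the H3K27 demethylase Kdm6b -2.07. All 4 lay close to the call limit. Without E3.5 WT replicate 1, and also with FPKM as deposited, 1 gene of the list was called lower in place of 4. Phc1, a subunit of PRC1, was 1.35 to 2.47 (median 1.89) against 22.7 to 35.2 (median 31.7), a difference of 3.43.

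Of 38 oocyte and cleavage-stage genes listed, 12 were kept, and 7 of these were called lower and 0 higher, with a median of -3.37. Most of the 12 passed the filter on low values through the E3.5 libraries, which fixes their direction, so the count is a description only. The median was -5.17 over 10 genes without E3.5 WT replicate 1 and -0.88 over 21 genes with the second E3.5 table. Khdc3, a protein of the maternal subcortical complex, was 151 to 494 (median 365) against at most 0.141. The leucine-rich repeat genes Pramel5, Pramel6 and Pramel7 had medians of 104, 169 and 162 at E3.5 and were listed at 0 in every epiblast library. They belong to a multigene family whose copies may share reads. Obox6, an oocyte homeobox gene, was 7.18 to 35.2 (median 10.7) against at most 0.227. Of 25 germline genes kept, 4 were lower and 1 higher, with a median of -0.06 that turned to 0.55 with FPKM as deposited. Stk31 was 3.98 to 15.6 (median 5.59) against 0.0493 to 1.00 (median 0.520). Sycp3, of the synaptonemal complex, was measured at both stages, with 9.26 to 40.6 (median 27.3) and 22.6 to 65.0 (median 38.1).

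Of 20 paternally expressed imprinted genes kept, 4 were higher and 1 lower, with a median of 0.35, but 2 were higher and 3 lower in the WT libraries alone. Of 18 maternally expressed imprinted genes kept, 4 were higher and 0 lower, with a median of 1.11. Mest, a paternally expressed hydrolase gene, was 0.0853 to 6.12 (median 0.755) against 52.5 to 119 (median 99.97), a difference of 5.38. Ndn was listed at 0 in all E3.5 libraries and was 8.72 to 13.7 in epiblast (median 11.8). Phlda2, a maternally expressed growth inhibitor of the placenta, was at most 0.919 against 9.10 to 42.7 (median 18.7). H19, a maternally expressed non-coding RNA, was at most 0.905 at E3.5 and 1.70 to 21.9 in epiblast (median 2.13). The H19 values of epiblast mHet column 4 and mKO column 3, the libraries with extraembryonic ectoderm markers, were 17.3 and 21.9, and those of the other 4 were 1.70 to 2.35. H19 in extraembryonic ectoderm itself was 155 to 818. Without those 2 libraries 3 maternally expressed genes were called higher in place of 4. Snrpn was high at both stages and not called, with 59.4 to 139 (median 92.3) and 140 to 278 (median 232).

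Of 21 glycolysis and glucose uptake genes kept of 24, 14 were called higher and 0 lower, with a median of 2.67, and in WT alone 12 and 1, with a median of 2.24. Together the list made up 0.171 to 0.226% of rescaled FPKM at E3.5 and 1.45 to 2.07% in epiblast. Ldha, the lactate dehydrogenase subunit that favours lactate formation, was 0.0671 to 1.58 at E3.5 (median 0.712) and 1672 to 2341 in epiblast (median 2094). Its difference of 10.22 was the largest upward difference of the genes kept. The partner subunit Ldhb was 0 to 2.69 (median 0.377) against 78.4 to 124 (median 96.8). Eno1, an enolase, was 8.92 to 42.4 (median 31.8) against 691 to 1324 (median 1168), and Pkm, pyruvate kinase, was 6.61 to 59.6 (median 37.4) against 578 to 1216 (median 1060). These late steps of the pathway were each above their E3.5 range in every epiblast library. Pfkl, the liver form of phosphofructokinase, was 1.71 to 3.502 (median 2.30) against 32.6 to 115 (median 88.7). The lactate exporter Slc16a3 was at most 0.215 against 1.57 to 42.8 (median 27.6), with the 1.57 in WT column 3. The glucose transporter Slc2a1, chosen after its values were seen, was 9.99 to 23.0 (median 14.2) against 141 to 284 (median 213).

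Some steps of glycolysis were not called. The first step was among them: the hexokinase Hk2 was 29.4 to 122 at E3.5 (median 42.3) and 8.60 to 18.7 in epiblast (median 11.5), below its E3.5 range with a difference of -1.93. Hk1 was low at both stages, 0.284 to 1.03 and 0.307 to 1.73. Aldoa, an aldolase, was already 364 to 478 at E3.5 (median 388) and 599 to 1431 in epiblast (median 999), a difference of 1.27. Slc2a3, a second glucose transporter, had -0.74, with 31.1 to 77.8 (median 55.6) against 22.3 to 40.9 (median 30.5). Gapdh had 0.82 with overlapping ranges, and -2.01 with the second E3.5 table, so its direction depended on the table. Fbp2, a fructose bisphosphatase that works against glycolysis, was 216 to 403 (median 296) against at most 0.133, a difference of -8.17. Nuclear-encoded respiratory chain genes showed no such rise. Together that list made up 2.17 to 3.02% of rescaled FPKM at E3.5 and 1.67 to 1.91% in epiblast, below its E3.5 range. Of 28 kept, 0 were higher and 1 was lower, Ppargc1b, a coactivator of mitochondrial genes and not a subunit, with a median of -0.16 for the list that turned to 0.20 with FPKM as deposited. Cox6b1, a subunit of cytochrome oxidase, was 621 to 1258 (median 872) against 351 to 523 (median 422).

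**Figure D4:**
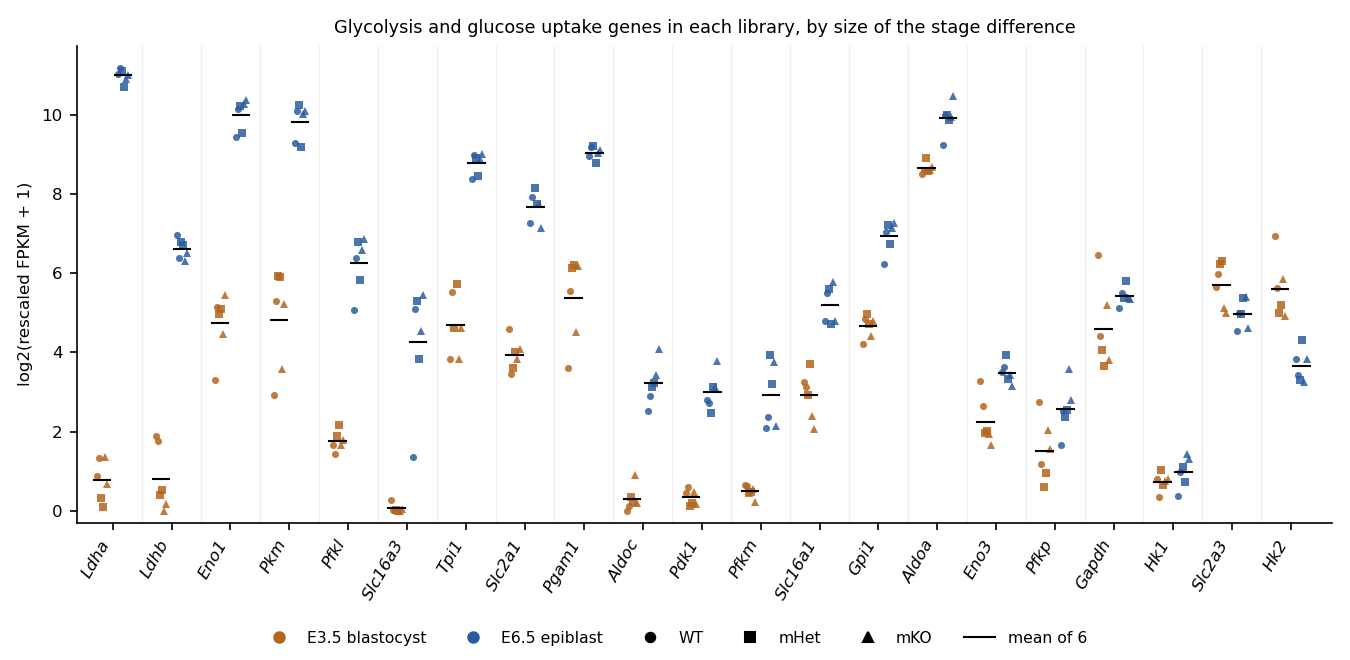
log2(rescaled FPKM + 1) of the 21 glycolysis and glucose uptake genes kept, in each E3.5 (brown) and epiblast (blue) library, ordered by the size of the stage difference, with a bar at the mean of 6. The first 14 genes are the ones called higher; Ldha has the widest gap and Slc2a3 and Hk2 lie lower in epiblast.

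Promoters of 3 glycolysis genes called higher are printed below, to show the sequence that lies at the start of genes that were higher together. Each window covers 250 bases before to 50 after an annotated start, in RefSeq GRCm38.p6, the strand of the gene, 5′ to 3′. Capitals mark the letters ACGTG on either strand (CACGT when read on the printed strand), the core bound by bHLH-PAS factors such as HIF. In CACGTG both readings overlap, so that word counts as 2 matches and is capitalised whole. These were the matched genes with the widest differences among the glycolysis genes called higher. For a gene with several windows, the window with the most matches is printed. Ldha and Pkm had 2 windows each, of which 1 held a match and the other none.
Ldha: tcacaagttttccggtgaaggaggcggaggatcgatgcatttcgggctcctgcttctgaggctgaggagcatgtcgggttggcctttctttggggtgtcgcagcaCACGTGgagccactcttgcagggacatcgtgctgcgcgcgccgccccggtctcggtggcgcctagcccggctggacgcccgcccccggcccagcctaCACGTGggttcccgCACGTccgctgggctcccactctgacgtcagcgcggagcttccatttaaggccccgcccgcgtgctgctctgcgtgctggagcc
Pkm: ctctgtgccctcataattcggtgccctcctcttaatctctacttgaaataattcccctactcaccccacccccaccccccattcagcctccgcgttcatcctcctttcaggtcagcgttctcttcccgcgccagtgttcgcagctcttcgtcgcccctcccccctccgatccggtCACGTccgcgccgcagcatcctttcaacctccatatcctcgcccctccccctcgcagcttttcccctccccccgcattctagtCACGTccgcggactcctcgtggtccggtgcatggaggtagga
Slc16a3: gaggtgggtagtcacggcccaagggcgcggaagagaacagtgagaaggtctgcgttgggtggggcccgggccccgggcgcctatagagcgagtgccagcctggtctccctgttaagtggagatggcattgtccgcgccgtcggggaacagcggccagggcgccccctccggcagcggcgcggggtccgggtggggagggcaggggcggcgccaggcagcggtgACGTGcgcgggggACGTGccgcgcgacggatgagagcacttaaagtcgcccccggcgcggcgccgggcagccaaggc
The windows lie on the plus strand at chr7:46845554-46845853 (Ldha), chr9:59656977-59657276 (Pkm) and chr11:120948817-120949116 (Slc16a3) and hold 5, 2 and 2 matches. All 14 genes called higher had a window in the table and 8 of them (57.1%) had at least 1 match in any of their windows. In the whole promoter table the letters were found in 21.8% of genes and in 19.6% of windows. Genes not kept here are among these. Of all genes kept, 77.6% had a window, and 30.0% of those had a match. Among all genes called higher, 76.7% had a window, and 30.4% of those had a match. Of the 20 genes of the glycolysis list that had a window, called or not, 12 (60.0%) had a match. Ldhb, Eno1, Pfkl, Tpi1, Pdk1 and Gpi1 had no match in these windows. A match is a description of letters and not a bound site.

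Cell cycle genes were higher in part. Of 29 kept, 9 were called higher and 1 lower, with a median of 1.33. Ccnd1, the cyclin of early G1, was 0.130 to 0.863 (median 0.303) against 13.4 to 20.7 (median 19.5). Ccne1, the cyclin of S phase entry, was 4.75 to 30.8 (median 9.13) against 97.3 to 160 (median 129). Cdkn1a, an inhibitor of cyclin kinases, was 9.55 to 46.8 (median 16.8) against 1.34 to 5.16 (median 2.67). The replication licensing genes Mcm2, Mcm3, Mcm4 and Mcm6 were among the 9, with differences from 2.00 to 2.43. Mycn, a growth regulator, was 0.467 to 11.0 (median 4.10) against 27.2 to 66.2 (median 54.1). Of the list, 5 were called higher without E3.5 WT replicate 1 or with median ratio scaling, and 13 with FPKM as deposited. The mitotic cyclin Ccnb1 was not called, with 93.4 to 175 (median 154) against 192 to 363 (median 232).

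Of 23 lysosomal genes kept, 8 were called lower and 0 higher, with a median of -1.49. Psap, the precursor of the saposins, was 176 to 249 (median 220) against 0.822 to 8.84 (median 3.86). Gm2a, an activator of ganglioside breakdown, was 120 to 425.4 (median 253) against 1.67 to 6.08 (median 2.65). The tetraspanins Cd63 and Cd9 were 553 to 1206 (median 1047) and 495 to 852 (median 719) at E3.5, and 15.1 to 77.7 and 25.1 to 56.5 in epiblast. Lamp1, a lysosomal membrane protein, was not called, with a difference of -1.28. Adhesion and cytoskeleton genes had 5 lower and 1 higher of 29 kept, with Krt8, Krt18 and Cldn4 among the lower ones and Podxl higher.

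**Figure D5:**
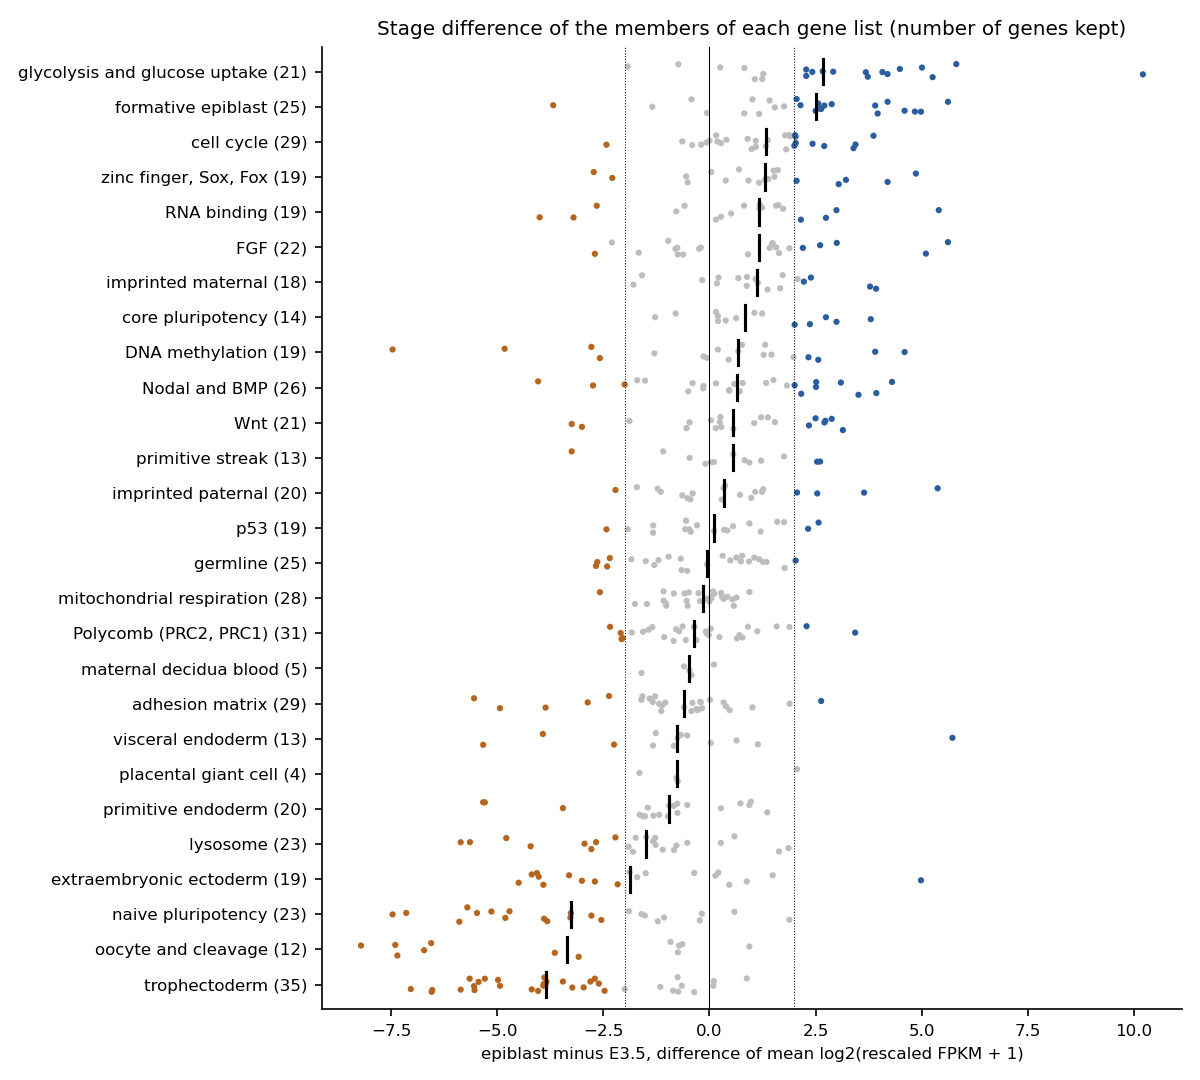
Stage difference in mean log2(rescaled FPKM + 1), epiblast minus E3.5, of each gene kept in the 27 lists, with blue for genes called higher, brown for genes called lower, grey for the rest and a bar at the list's median. Trophectoderm, oocyte and naive pluripotency lists have medians under -3, and glycolysis and formative epiblast lists have medians of 2.67 and 2.50.

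Extraembryonic ectoderm genes had 9 lower and 1 higher of 19 kept (median -1.88), a list led by Sox, Fox and other developmental genes 5 higher and 2 lower of 19 (1.31), and RNA-binding genes 4 higher and 3 lower of 19 (1.17). The p53 list had 2 higher and 1 lower of 19 (0.11, -0.08 without epiblast mKO column 3 and mHet column 4, and 0.23 without E3.5 WT replicate 1). Genes of maternal decidua and blood, 5 kept, and of trophoblast giant cells, 4 kept, had 0 calls either way, but the giant cell list had 1 higher and 1 lower without E3.5 WT replicate 1.

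The genes with the widest differences were not all on a list. Among the highest were Emb (embigin, an ancillary protein of monocarboxylate transporters), at 0.0930 to 1.57 (median 0.659) against 174 to 278 (median 229). Cd24a, a surface glycoprotein, was at most 0.967 against 93.2 to 189 (median 137), and Car14, a carbonic anhydrase, at most 0.575 against 68.8 to 114 (median 93.9). Igfbp2, an insulin-like growth factor binding protein, was at most 1.42 against 55.5 to 133 (median 97.4). All 4 were below 2 FPKM in every E3.5 library. Mdk, the growth factor midkine, was 1.18 to 20.7 (median 3.85) against 158 to 358 (median 181). Among the lowest, Crxos1, a homeobox gene, was 1179 to 1589 (median 1350) against at most 0.0839, a difference of -10.36. Calcoco2, an autophagy receptor, was 894 to 1128 (median 1010) against at most 0.236, a difference of -9.82. Bhmt, which remethylates homocysteine, was 73.4 to 312 (median 178) and Timd2, a ferritin receptor, 84.9 to 340 (median 182), and both were listed at 0 in every epiblast library. Adh1, an alcohol dehydrogenase, was 47.0 to 462 (median 137) against at most 0.105. The stages were separated without overlap for each of these genes.

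Other tables give levels for the same genes, each rescaled to the same total but normalized separately. At E4.25, a later pre-implantation stage with Rn45s at 11.7 to 68.6%, Dnmt3b was 0.3996 to 146 (median 68.1), above its E3.5 median of 13.6 and below its epiblast median of 339. Otx2 was 0 to 4.96 there (median 1.38), below every epiblast library. Ldha was 0.181 to 73.1 (median 8.81), Klf2 was 33.8 to 111 (median 54.6) and Klf4 was 23.1 to 65.4 (median 34.5). Both Klf genes were above every library of the first E3.5 table and of epiblast. In the extraembryonic ectoderm of the E6.5 embryo Ldha was 642 to 1869 (median 1601), Eno1 387 to 1323 (median 1031) and Slc2a1 197 to 304 (median 251). The levels of these 3 glycolysis genes in that tissue overlapped those of epiblast. By contrast Otx2 was at most 2.58 there, Dnmt3a at most 4.15, Ccnd1 at most 2.48 and Phc1 at most 3.93, all below every epiblast library. Other epiblast markers did not separate the tissues. Pou3f1 was 4.64 to 67.9 in extraembryonic ectoderm, Utf1 89.1 to 224 and Sox2 1.71 to 27.5, each overlapping its epiblast range. In the second E3.5 table Gapdh was 74.4 to 273 and Pou5f1 17.7 to 73.9, against 11.6 to 86.7 and 60.6 to 127 in the first.

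With the WT libraries alone, 551 genes (4.93%) were called higher and 985 (8.82%) lower, and 417 and 658 of the pooled calls were among them. All 3 genotypes taken alone called 315 of the 511 higher genes and 482 of the 698 lower ones. Zfp57 differed by -4.49 in WT alone and by -2.79 in the pooled libraries, and Id2 by -6.92 and -4.04. Ldha differed by 10.02 and Otx2 by 5.21 in WT alone. Trophectoderm genes had 27 lower, naive genes 15 lower, formative genes 15 higher and glycolysis genes 12 higher in WT alone.

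Whether the stage difference depended on genotype was tested with limma as (epiblast mutant minus epiblast WT) minus (E3.5 mutant minus E3.5 WT), with each bracket taken within 1 table. For mKO, 1 gene (0.00895%) was past an adjusted p of 0.05 upward and 3 (0.0269%) downward, with 877 genes at an unadjusted p under 0.05 and a median shift over all genes of 0.24. Leaving out E3.5 WT replicate 2 gave 67 genes. For mHet, 0 genes passed in either direction, with 1011 at an unadjusted p under 0.05 and a median shift of 0.17, but 746 passed without E3.5 WT replicate 2. Without E3.5 WT replicate 2 the only WT library at E3.5 was replicate 1, which stood apart in Rn45s share and correlation. Both counts without replicate 2 therefore set the E3.5 mutants against that library alone. The median shifts depended on the scaling. With median ratio scaling they were 0.04 for mKO and 0.07 for mHet, and with FPKM as deposited -0.16 and -0.30. Without E3.5 WT replicate 1 they were 0.09 and -0.01. In the E3.5 table mKO libraries differed from WT in Y-linked transcripts too, so genotype and sex cannot be told apart there. The mHet libraries held Y-linked transcripts at E3.5 (41.8 and 81.1) but not in epiblast (0.156 and 0.0467). Stage and sex therefore cannot be told apart within mHet. BC051665 was 43.7 and 30.5 in E3.5 WT, 0.827 and 0.282 in E3.5 mKO and listed at 0 in epiblast (4.62, SE 0.53, limma adjusted p = 0.0108). Prl3b1, a placental prolactin gene, was 0 and 0.155 in E3.5 WT, 9.00 and 10.7 in E3.5 mKO and listed at 0 in epiblast (-3.33, SE 0.41, limma adjusted p = 0.0108). Both rest on the E3.5 libraries alone. The epiblast zeros have no spread but enter the shared estimate of it. The SE and p of both genes may therefore be too small. Nat1, an acetyltransferase, was 0.269 and 0 in E3.5 WT and 4.90 and 4.46 in E3.5 mKO, with 0.165 to 1.30 in epiblast (-3.00, SE 0.37, limma adjusted p = 0.0108). Gm2518, a predicted gene, was 0 in both E3.5 WT libraries and 2.96 and 2.29 in E3.5 mKO, with 0.754 and 0.780 in epiblast WT and 0 and 0.164 in epiblast mKO (-2.57, SE 0.33, limma adjusted p = 0.0120). It reached 1 FPKM in the E3.5 mKO libraries alone, so it passed the filter only through the group where it was high. None of the 4 passed with the second E3.5 table, and none passed without epiblast WT column 3, WT column 4 or mKO column 3. Without E3.5 mKO replicate 2 the other 3 did not pass and Gm2518 was not tested, since it fell to the filter.

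For mHet the genes with the smallest p were Id1, Ier2 and Lefty1 upward and Alppl2, Rsl1 and Mir1966 downward. Id1, a BMP target, was 0.283 to 0.801 in the WT and mHet E3.5 libraries, 2.25 and 8.07 in epiblast WT and 72.2 and 162 in epiblast mHet (4.15, SE 0.68, limma adjusted p = 0.392). Lefty1 was listed at 0 in those E3.5 libraries, 0.512 and 3.35 in epiblast WT and 21.7 and 30.7 in epiblast mHet (3.39, SE 0.64, limma adjusted p = 0.392). In both genes the mHet epiblast libraries lay above the 4 others of that tissue. Against the second E3.5 table both passed, with limma adjusted p = 0.00131 each. That comparison reused the same epiblast libraries, where the difference of both genes lay, so it is not independent support. With a pseudocount of 0.1 the limma adjusted p was 0.541 for Id1 and 0.544 for Lefty1. Alppl2, an alkaline phosphatase, was 9.48 and 11.7 in E3.5 WT and 115 and 129 in E3.5 mHet. It was listed at 0 in epiblast (-3.41, SE 0.63, limma adjusted p = 0.392). Its epiblast zeros likewise add no spread, so it too rests on the E3.5 libraries and its SE may be too small. With the second E3.5 table its value was -0.09 (limma adjusted p = 1), and the limma adjusted p over alternatives ran from 0.0317 to 1, the lowest without E3.5 WT replicate 2.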

How the data were processed

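RNA was measured by Smart-seq2 of polyadenylated RNA, per the labels' protocols. The authors deposited FPKM tables, and the submitters' processing notes list HTSeq 0.6.0, HISAT2 2.2.1 and Trim Galore 0.4.2 without their settings. The tables were normalized separately, by steps not given in the sources used, and no step of single reads was found in the FPKM, so depth is unknown. Gene names shared by both tables (23637) were used, 27 rows named as dates were dropped, Rn45s was removed, each column was rescaled to 370421, and 1 was added before log2. Of 23206 genes with a chromosome in RefSeq or GENCODE, 1073 X and Y genes were left out. Genes reaching 1 FPKM in at least 2 of 12 libraries were kept (11172). Epiblast columns numbered 3 and 4 match no sample title, so they were assigned to a genotype only. No 2 of the 12 libraries were identical.

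The stage by genotype test used limma 3.58.1 in R 4.3.3 on all 6 groups with Benjamini-Hochberg adjustment over all genes kept, and was tested on simulated data. Python 3.11.15, numpy 2.4.6 and pandas 2.3.3 did the rest. No source says that replicates are separate litters, so p-values reflect only how these samples vary, and that variation may be technical. Genes were named by rule: the 15 widest calls in each direction with a mean of at least 10 FPKM, up to 6 called and 3 other members of each of 27 lists, 8 fixed genes, and those of the genotype test; any others were chosen after their values were seen. Members and lists were chosen with earlier results of these data known. Alternatives were median ratio scaling, FPKM as deposited, a pseudocount of 0.1, no filter, a call at log2 3, each genotype alone, X and Y genes kept, the second E3.5 table, a replicate block, fewer groups and each library left out. Leaving out E3.5 WT replicate 1, or the epiblast libraries mKO column 3 and mHet column 4 together, was added for the list counts after seeing the data. One result that the naming rule selects is not reported here.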

Additional observations from a re-analysis of the deposited data

Results flagged for a closer look

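Values that stood apart from the other 5 libraries of their stage, by the gap to the nearest library over the whole range, were looked for in 237 groups of 6 libraries, and 17 passed Dixon's critical value. Chance flags about 1 in 20 groups. In E3.5 WT replicate 1, Dppa3 was 439 FPKM against 927 to 1355 in the others and Zfp42 was 178 against 91.9 to 112. In the same library Tcf7 was 1.33 against 0 to 0.227, Mixl1 was 1.81 against 0 to 0.253, Igfbp2 was 1.42 against 0 to 0.278 and Nt5dc2 was 1.23 against 0 to 0.249. Its Rn45s share was 21.0% against 2.13 to 9.12%, and its median correlation with its stage was 0.909 against 0.952 to 0.974. In other E3.5 libraries, Tfcp2l1 was 59.2 in mHet replicate 2 against 34.5 to 38.3, Obox6 was 35.2 in mHet replicate 1 against 7.18 to 11.7, and Pramel4 was 53.0 in mKO replicate 1 against 91.9 to 123. In epiblast WT column 3, Mixl1 was 69.8 against 0.541 to 5.03 and Phc1 was 22.7 against 29.9 to 35.2. In epiblast mKO column 3, Fkbp6 was 10.1 against 4.47 to 5.97 and Ccnd1 was 13.4 against 18.3 to 20.7. Ndn was 8.72 in mKO column 4 against 11.6 to 13.7, and Mdk was 358 in mHet column 4 against 158 to 212.

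The stage difference in mKO differed from that in WT for 4 genes by limma. It differed by 4.62 on the log2 scale for BC051665, -3.33 for Prl3b1, -3.00 for Nat1 and -2.57 for Gm2518. None of the 4 passed with the second E3.5 table. Gm2518 passed the filter only through the E3.5 mKO libraries, where it was high. Genotype and sex cannot be told apart between the mKO and WT libraries at E3.5.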

How the results depend on the processing

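The counts of genes called between stages (511 higher, 698 lower) became 1200 and 1334 with a pseudocount of 0.1, 149 and 311 with a call at log2 3, and 774 and 446 with the second E3.5 table. They ran from 490 to 526 and from 677 to 727 with each library left out, and stayed within 1.5 times under median ratio scaling (472 and 696), FPKM as deposited, no filter, each genotype alone and X and Y genes kept. No named gene that was called changed direction under these alternatives. No paired analysis was possible because the stage difference comes from no test. In the genotype test replicate numbers did not establish a pairing: there were 2 numbers only, with correlations of deviations of 0.16, 0.51 and 0.23. The replicate block gave 17 genes for mKO and 0 for mHet.

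The mKO count of 4 became 7 with a pseudocount of 0.1, 59 with no filter, 1 with the second E3.5 table and 2 with only the 4 groups compared. Leaving out 1 library at a time gave 0 to 67, with 67 without E3.5 WT replicate 2 and 0 without E3.5 mKO replicate 2, epiblast WT column 3, WT column 4 or mKO column 3. Without E3.5 mKO replicate 1 it was 7 and without epiblast mKO column 4 it was 8. The mHet count of 0 became 37 with no filter, 7 with the second E3.5 table and 4 with only the 4 groups compared. It ran from 0 to 746, with 746 without E3.5 WT replicate 2, 3 without epiblast mKO column 3 or column 4 and 1 without E3.5 mKO replicate 1 or 2. A library left alone in its group is assumed to vary like the others. Without E3.5 WT replicate 2 that library was E3.5 WT replicate 1, which stood apart, so the largest counts rest on it. The cause of these shifts was not tested. Depth is unknown and limits what low values can show.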
